A study of Mus musculus with 9 samples.

Results

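Transcripts related to intracisternal A particles (IAPs) were followed in RAW264.7 cells, a mouse macrophage line. They were chosen by their database text alone: a transcript was taken where its best SwissProt or nr protein match named an intracisternal A particle. This gave 372 of 153363 transcripts, on 344 genes or loci. Each was matched through its SwissProt text, and 0 through the nr text. The rule itself used no measured value.

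RNA was sequenced from 9 samples, 3 each labelled CON, LPS and ProNa. The treatment text is shared by all of them: RAW264.7 cells were kept with or without ProNa at 1 mM for 24 h and then given LPS, bacterial lipopolysaccharide, at 100 ng/mL for 12 h. The ProNa group is read here as ProNa followed by LPS, CON as cells with neither and LPS as cells with LPS alone; the labels give only the group names and do not expand ProNa. The extraction text speaks of colonic segments, but the macrophage genes Cd68, Lyz2 and Spi1 stood at 884, 9719 and 257 FPKM in CON, the T cell gene Cd3e and the epithelial gene Epcam were listed at 0 in every group, and Krt8, Krt18 and Col1a1 stayed below 0.19 FPKM.

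IAPs are endogenous retroviral elements present in many copies in the mouse genome. A full element carries gag, pro and pol genes between 2 long terminal repeats. Gag builds the particle, which buds into the cisternae of the endoplasmic reticulum and does not leave the cell. Pol holds the reverse transcriptase, RNase H and integrase. Most IAPs lack an envelope gene, and the IAPE subgroup carries one. In somatic cells the elements are held silent by DNA methylation and by histone H3 lysine 9 methylation, which KRAB zinc finger proteins, TRIM28 and SETDB1 direct to them, and single copies can still give rise to transcripts that start or end inside host genes.

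The best SwissProt match divided the transcripts by encoded product. Gag was matched by 81, Pol by 163 and Env by 128. The largest entry was the Pol of the IAP found beside the Il3 gene, with 136 transcripts, followed by the IAPE envelope with 128 and a mouse IAP Gag with 78. The Syrian hamster IAP Pol was the best match of 15. The label was checked against 2 other annotations. A retroviral protein domain or a retroviral product in the nr text was present for 74 of 81 Gag, 143 of 163 Pol and 28 of 128 Env transcripts. The remaining 100 Env transcripts therefore rest on the SwissProt match alone, whose strength the files do not give. The nr text named mouse proteins for 256 transcripts and other species for 112, among them 44 with the blind mole rat Nannospalax galili. These are names of database entries and not the source of the RNA.

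The transcripts were mostly outside the reference annotation. Assembled loci without a reference gene held 191, new transcripts of reference genes 73, and reference transcripts 108. Lengths ran from 149 to 21185 bases with a median of 1112.5. Genes and loci lay on every mouse chromosome, with 40 on chromosome 1, 30 on chromosome 5, 25 on chromosome 6 and 3 not placed. Reference genes were placed by the GENCODE M21 annotation, and assembled loci were inferred from the order of the locus numbers.

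Some copies share stretches of sequence, shown here for reference transcripts; the sequences of assembled transcripts were not analysed here. For each product, the stretch of 40 bases carried by the most reference transcripts was found on the sense strand and then searched for in both strands, using GENCODE M21 sequences of build GRCm38, to which all 108 reference transcripts matched by identifier and length. Capitals mark the shared stretch. The Gag stretch is shown in the whole transcript of Gm44268 (chromosome 6), the Pol stretch in bases 2355 to 2474 of the 3991-base Gm42860 (chromosome 5), and the Env stretch in bases 1903 to 2022 of the 2993-base Gm20559 (chromosome 6).
Gag, Gm44268: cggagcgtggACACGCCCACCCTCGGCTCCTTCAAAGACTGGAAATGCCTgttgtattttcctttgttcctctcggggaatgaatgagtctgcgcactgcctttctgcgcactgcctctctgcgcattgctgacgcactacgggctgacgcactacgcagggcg
Pol, Gm42860: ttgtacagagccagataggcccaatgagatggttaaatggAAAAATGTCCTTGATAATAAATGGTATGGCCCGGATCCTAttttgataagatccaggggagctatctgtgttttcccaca
Env, Gm20559: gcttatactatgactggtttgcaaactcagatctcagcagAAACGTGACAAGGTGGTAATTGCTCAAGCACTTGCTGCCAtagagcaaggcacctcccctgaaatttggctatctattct

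On the sense strand the Gag stretch occurred in 7 of 28 reference Gag transcripts, the Pol stretch in 7 of 32 and the Env stretch in 6 of 48. Sense here means the strand of the transcript model, and the direction of the gag gene in these models was not analysed. Counting either strand, these were 11, 8 and 6. Among IAP-related reference transcripts of any product they were 13, 8 and 6. The Gag stretch was also carried by Gm42860 and a transcript of Noct, both matched to Pol. Both hold the Pol stretch on the sense strand and the Gag stretch on the opposite strand, the reverse of the 7 Gag transcripts. On either strand the stretches were found in 0.00917%, 0.00705% and 0.00423% of all 141767 GENCODE transcripts. The levels of the carriers ranged widely. Among carriers of the Pol stretch on the sense strand, Gm42860 stood at 40.7, 41.1 and 30.4 FPKM in CON, LPS and ProNa, Gm29084 at 15.3, 12.0 and 9.95, and Gm38279 at 0.273, 0.407 and 0.09. Among carriers of the Env stretch, Gm20559 stood at 14.5, 34 and 33 FPKM, whereas Gm50321 stood at 1.05, 0.317 and 0.09. Gm8113, also a carrier, stayed at or below 0.02. A shared stretch thus went with levels that moved in opposite directions between groups.

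The sequence printed for Gm44268 is letter for letter that of Gm44379 and Gm37282. These 164-base models were nevertheless listed with different values in CON, at 11.6 FPKM for Gm44268, 5.76 for Gm44379 and 0 for Gm37282. In LPS each was listed at 0, and in ProNa each at 6.93. The sources used here do not say how reads that match several copies were shared out, so the level of a single copy is uncertain. The 3 models take 3 of the 4 places among Gag transcripts more than 2-fold higher in ProNa than in LPS, and the authors' deposited table gives none of them an adjusted p for that comparison.

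The values are FPKM, fragments scaled to transcript length and to the mapped total of the library, with 1 value per group deposited by the authors. No spread or test over samples can be given for them, and depth is unknown. At least 1 FPKM in a group was reached by 280 of the 372 transcripts: 63 of 81 Gag, 139 of 163 Pol and 78 of 128 Env. The other 92 stayed below, 20 of them at 0 in every group. Just below the limit lay Gm2011 (0.96 in CON) and MSTRG.14575.1 of Gm42851 (0.967 in CON). Just above it lay MSTRG.9192.1 (1.03 in CON) and Gm50321 (1.05 in CON). Names starting with MSTRG are transcripts assembled by the authors' StringTie run.

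The IAP-related transcripts together held 4360, 3403 and 2642 FPKM in CON, LPS and ProNa, or 0.552%, 0.433% and 0.333% of all FPKM. Gag summed to 1227 in CON, 789 in LPS and 547 in ProNa. Pol summed to 2362, 1857 and 1414, and Env to 771, 757 and 681. The sum in LPS was 0.780 of that in CON, and the sum in ProNa was 0.777 of that in LPS and 0.606 of that in CON. In bulk RNA, fewer cells with a transcript and less of it per cell cannot be told apart. The bars of summed FPKM show Gag and Pol lowest in ProNa and Env nearly level.

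**Figure D1:**
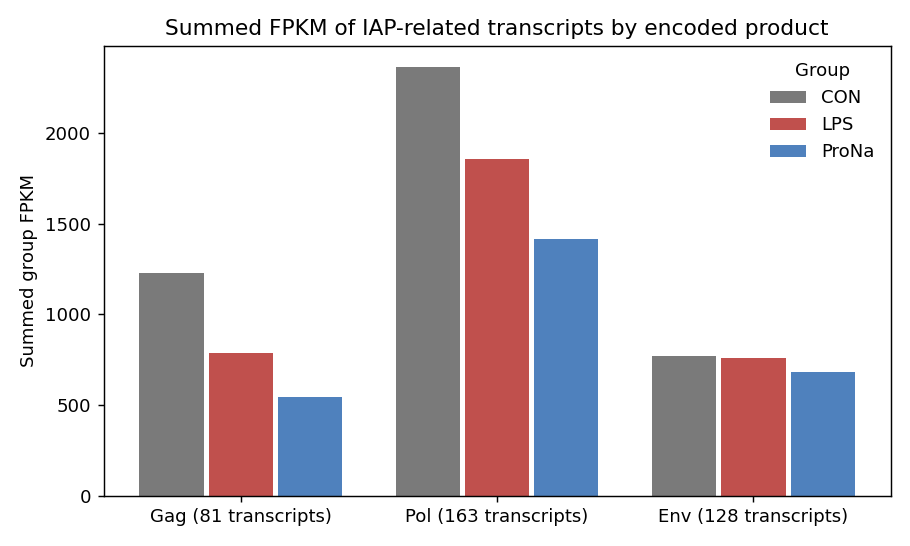
Summed group FPKM (vertical axis) of the Gag, Pol and Env transcripts in CON, LPS and ProNa, with 1 bar for each group value and no error bars, since no values per sample could be assigned. Gag ran from 1227 in CON to 547 in ProNa, Pol from 2362 to 1414 and Env from 771 to 681.

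FPKM is relative, and its scale matters here. Over all transcripts that reached 1 FPKM, the median log2 difference was -0.21 for LPS against CON, -0.12 for ProNa against LPS and -0.35 for ProNa against CON. The gene fold changes in the authors' deposited table are centred elsewhere. For 453 reference genes with 1 transcript they exceeded the FPKM log2 ratio by a median of 0.27, 0.13 and 0.41. With FPKM moved to that scale, the summed IAP ratio became 0.940 for LPS against CON, 0.853 for ProNa against LPS and 0.803 for ProNa against CON. Over all transcripts the summed ratio on that scale was 1.20, 1.11 and 1.33 in the same order. For LPS against CON it was 0.774 for Gag, 0.947 for Pol and 1.18 for Env. Env was thus close to all transcripts, and Gag and Pol lay below them. Against CON, ProNa gave 0.590 for Gag, 0.793 for Pol and 1.17 for Env, each below the 1.33 over all transcripts. The lower level of Gag therefore held on both scales. The direction of the Env sum did not, though that sum did not rise beyond the sum over all transcripts. Medians per transcript differed from the sums. On the authors' scale the Env median was 0.34 for LPS against CON, with 0.07 over all transcripts. For ProNa against CON it was 0.21 against 0.07, and for ProNa against LPS -0.05 against 0.002.

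The 10 transcripts with the highest mean held 29.9%, 35.3% and 33.3% of the IAP sum in CON, LPS and ProNa, and 9 of them were lowest in ProNa. The highest, MSTRG.8999.1, is a 1387-base Pol transcript with a reverse transcriptase domain on chromosome 17, numbered between Cdkl4 and Map4k3. It stood at 209, 134 and 97.5 FPKM in CON, LPS and ProNa. Of the 3 Gag transcripts, MSTRG.21359.1 on chromosome X stood at 143, 78.6 and 53.3 FPKM and MSTRG.8779.1 on chromosome 17 at 105, 48.4 and 27.5. Both are matched in nr to the IgE-binding protein, which derives from an IAP gag gene. They were highest in CON and lowest in ProNa, whereas the third, MSTRG.13558.1 on chromosome 4, stood at 160, 152 and 86.4, close in CON and LPS.

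A cluster of IAP sequence lay on chromosome 5 beside Ogfod2, by the order of the locus numbers. MSTRG.15418.1 (Pol) stood at 149, 139 and 94.2 FPKM in CON, LPS and ProNa. The neighbouring MSTRG.15417.1, a 3483-base Pol transcript, stood at 120, 136 and 112. MSTRG.15419.1, a 4513-base Gag transcript of Ogfod2 itself, stood at 34.5, 24.3 and 18.6. These neighbours shared the lowest value in ProNa but not the order of CON and LPS. MSTRG.18304.1 on chromosome 7, a Pol transcript after Mki67, stood at 63.6, 57.4 and 37.4.

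Inside reference genes, MSTRG.7686.1 of Itgb5, the integrin beta 5 subunit, stood at 143, 175 and 121 FPKM in CON, LPS and ProNa. MSTRG.20798.1 of Ulk4, a kinase-like protein, stood at 152, 121 and 94.0. The one transcript of these 10 with a contrary pattern was MSTRG.9841.1 on chromosome 19, numbered between Slc22a27 and Slc3a2, with an Env match. It stood at 59.8 in CON, 160 in LPS and 158 in ProNa, as the plot of the 10 highest transcripts shows.

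**Figure D2:**
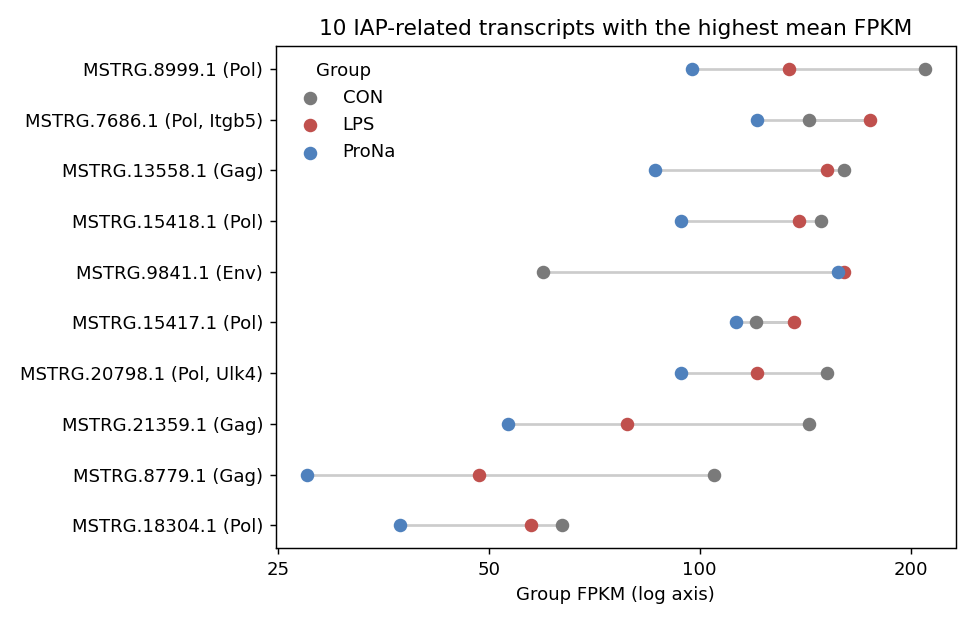
Group FPKM (log axis) of the 10 IAP-related transcripts with the highest mean, with 1 point for each of CON, LPS and ProNa and no error bars. ProNa is the lowest point in 9 transcripts, and MSTRG.9841.1 has CON lowest at 59.8 with LPS and ProNa at 160 and 158.

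LPS against CON asks what lipopolysaccharide did to these transcripts. Higher by at least 2-fold on the scale of log2 FPKM plus 0.5 were 29 of the 278 transcripts that reached 1 FPKM in either group (10.4%), against 17.8% of all transcripts. Lower by as much were 64 (23.0%), against 22.8% of all transcripts, so the share of lower ones was near the background. On the scale of the authors' gene table the split was 43 higher and 49 lower of 279, against 22.7% and 17.6% of all transcripts. The median log2 difference was -0.45 on the FPKM scale, set against -0.21 over all transcripts. On the authors' scale it was -0.20, set against 0.07. The added 0.5 understates the differences of low transcripts.

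Over all transcripts 57.0% were lower in LPS. Among 62 Gag transcripts 51 were lower in LPS, with a median of -0.65, and among 139 Pol transcripts 100 were lower, with a median of -0.49. Of 77 Env transcripts 36 were lower, with a median of 0.10, and 18 were at least 2-fold higher against 14 lower. The Env transcripts with no other retroviral annotation had a median of 0.10 over 57, and the 20 with such annotation a median of -0.50. On the authors' scale 41 of 62 Gag and 89 of 139 Pol transcripts were lower, against 47.7% of all transcripts, with medians of -0.41 and -0.24. On that scale Env gave 26 higher and 10 lower of 78, with a median of 0.34. No test was run between products.

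**Figure D3:**
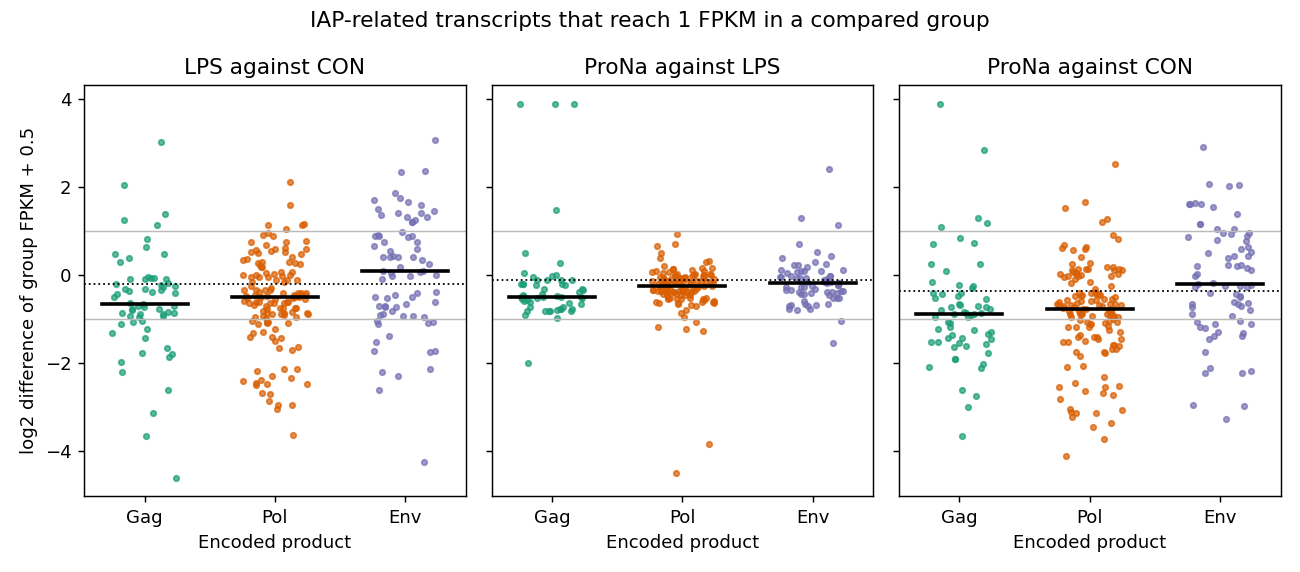
Log2 difference of group FPKM plus 0.5 (vertical axis) for each IAP-related transcript that reached 1 FPKM in a compared group, by encoded product and comparison. Black bars are medians, the dotted line is the median over all transcripts and grey lines mark 2-fold; Gag and Pol medians lie below the dotted line in each panel, and Env lies above it in LPS against CON.

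The transcripts furthest lower in LPS included MSTRG.17431.1, a 2754-base transcript with a GP41 envelope domain on chromosome 7, numbered between Gm2058 and Zfp715. It stood at 108, 5.24 and 13.6 FPKM in CON, LPS and ProNa, a log2 difference of -4.24 between LPS and CON. This transcript and MSTRG.9841.1 pull the Env sum in opposite directions. Without MSTRG.17431.1 the Env ratio of LPS to CON was 1.13, and without MSTRG.9841.1 it was 0.839. MSTRG.14036.1 (Gag, chromosome 4) stood at 9.93, 0.693 and 0.81 FPKM. MSTRG.5069.4 stood at 10.9, 0.417 and 0.367 FPKM; it is a Gmnn transcript that joins a Geminin domain, the inhibitor of DNA replication licensing, to an integrase domain.

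Those furthest higher in LPS were at low levels. A 670-base Env transcript of Gm20559 stood at 0.473, 7.62 and 6.80 FPKM in CON, LPS and ProNa. MSTRG.15913.1, an Env transcript of St7, stood at 0.983, 7.15 and 5.51, and the unplaced MSTRG.13082.1 at 0.193, 2.99 and 2.38. The longest was MSTRG.2317.1, a 5025-base Pol transcript with integrase domains on chromosome 10, numbered between Nap1l1 and Glipr1, at 2.51, 12.5 and 8.14. The 165-base Gag model Gm43940 was listed at 0 in CON, 3.59 in LPS and 3.06 in ProNa. Each of these remained above its CON value in ProNa.

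ProNa against LPS asks what ProNa changed in cells given LPS. Of 245 transcripts, 7 were at least 2-fold higher in ProNa (2.86%, against 3.7% of all transcripts) and 9 at least 2-fold lower (3.67%, against 5.18% of all transcripts), both near or under the background. The differences were small and mostly of 1 sign. ProNa was the lower group in 195 of 245 (79.6%, against 61.5% of all transcripts), with a median of -0.27 against -0.12. On the scale of the authors' gene table, 168 of 260 were lower (64.6%, against 49.9%). There 10 were at least 2-fold higher and 7 lower (3.85% and 2.69%, against 5.32% and 4.73% of all transcripts), both under the background. On the FPKM scale the median was -0.49 over 55 Gag, -0.24 over 120 Pol and -0.18 over 70 Env transcripts. On the authors' scale it was -0.38 over 57 Gag, -0.12 over 127 Pol and -0.05 over 76 Env, with 0.002 over all transcripts.

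The lowest in ProNa relative to LPS was MSTRG.12090.1, a 208-base Pol transcript on chromosome 3, listed at 4.64, 10.8 and 0 FPKM in CON, LPS and ProNa. MSTRG.3618.1, a 385-base Pol transcript on chromosome 11 numbered between Stard3 and Csf3, stood at 21.7, 33.4 and 1.89. MSTRG.15877.1 (Pol, chromosome 6) stood at 10.1, 13.1 and 5.16. The 201-base Gag transcript MSTRG.1797.1 was listed at 5.79, 1.49 and 0. Gm11331, a 288-base Env transcript, stood at 19.7, 5.62 and 1.60. Each of these was shorter than 500 bases, and among the transcripts of at least 500 bases 3 were 2-fold higher and 3 lower of 196.

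Higher in ProNa than in LPS, beside the identical 164-base models, were MSTRG.12975.1 and MSTRG.19174.1. MSTRG.12975.1, a 628-base Env transcript on chromosome 3 numbered between Stpg2 and Gbp3, stood at 0.713, 0.453 and 4.56 FPKM in CON, LPS and ProNa. MSTRG.19174.1, a 249-base Gag transcript on chromosome 8, stood at 2.61, 1.87 and 6.09. In all, 8 transcripts that reached 1 FPKM were listed at 0 in some group, and all 8 were shorter than 500 bases.

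ProNa against CON sets the treated cells against untreated ones. At least 2-fold higher in ProNa were 24 of 277 transcripts (8.66%, against 15.9% of all transcripts), and at least 2-fold lower were 99 (35.7%, against 26.3% of all transcripts). On the scale of the authors' gene table the split was 40 higher and 71 lower of 284 (14.1% and 25%), against 22.7% and 18% of all transcripts. On the FPKM scale Gag gave 5 higher and 27 lower of 63, Pol 5 and 53 of 139, and Env 14 and 19 of 75. The medians were -0.87, -0.77 and -0.21, with -0.35 over all transcripts. On the scale of the authors' gene table Gag gave 8 higher and 20 lower of 63, Pol 10 and 38 of 141, and Env 22 and 13 of 80, so the balance of Env turned. The medians were then -0.51, -0.39 and 0.21, with 0.07 over all transcripts.

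Of the 5 transcripts furthest below CON, 4 had a Pol match. MSTRG.7570.1 (chromosome 16, numbered between 2510009E07Rik and Vps8) stood at 10.4, 0.813 and 0.127 FPKM in CON, LPS and ProNa. MSTRG.19400.1 (chromosome 8, numbered between Gm45904 and Cdyl2), which carries reverse transcriptase and integrase domains, stood at 9.29, 0.843 and 0.397. Above CON, MSTRG.1481.1, a Pol transcript of Gm16897, stood at 0.607, 2.84 and 5.85, highest in ProNa.

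The 3 group values stood in the order CON, LPS, ProNa from high to low in 150 of the 280 transcripts (53.6%), against 30.7% of all transcripts that reached 1 FPKM. This order was seen in 43 of 63 Gag, 83 of 139 Pol and 24 of 78 Env transcripts, the last near the share over all transcripts. LPS highest and CON lowest was the most frequent order of Env, with 28 of 78. That order held for 17.9% of the 280 transcripts and 21.6% of all transcripts. The comparisons share their groups, so these orders are no more than a description of 3 values.

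The authors' deposited table tests genes, not transcripts, and holds the 160 reference genes with an IAP-related transcript; the 184 assembled loci are not in it. Its p-values come from DESeq2, and separate cultures are not stated in the labels, so the spread they measure may be technical. In the authors' deposited table, 21 of 130 such genes rose and 40 fell in LPS against CON at an adjusted p under 0.05 (16.2% and 30.8%, against 28.1% and 27.2% of all genes adjusted). For ProNa against LPS 6 rose and 13 fell of 103 in the authors' deposited table (5.83% and 12.6%, against 16.5% and 14.1%). For ProNa against CON 24 rose and 49 fell of 132 in the authors' deposited table (18.2% and 37.1%, against 27.7% and 26.6%).

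A gene's test also counts its ordinary transcripts. The share of the gene's fragments in IAP-related transcripts was therefore computed from FPKM times length. In 63 genes that share was at least 90% with a transcript at 1 FPKM or more, a limit chosen after the values were seen. Of these genes, the authors' deposited table has 9 that rose and 20 that fell of 59 in LPS against CON, 1 and 7 of 50 in ProNa against LPS, and 8 and 28 of 59 in ProNa against CON. Rises were thus 15.3%, 2% and 13.6% of these genes in the authors' deposited table, against 28.1%, 16.5% and 27.7% of all genes adjusted. Falls there were 33.9%, 14% and 47.5%, against 27.2%, 14.1% and 26.6%, so falls in ProNa against LPS were at the background. The same shares of all genes are the background for the counts by product that follow.

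In 21 of the 63 genes the IAP-related transcripts were Gag alone. Of the 17 of these adjusted in the authors' deposited table, 2 rose, 7 fell and 8 were not called in LPS against CON. In ProNa against LPS, 0 rose and 4 fell of 16 in the authors' deposited table, and in ProNa against CON 2 rose and 11 fell of 17. MSTRG.351.1 of Cdk15, a cyclin-dependent kinase gene, stood at 59.0, 31.8 and 18.6 FPKM in CON, LPS and ProNa. Cdk15 fell in LPS against CON by 0.63 on the log2 scale of the authors' deposited table (adjusted p = 0.00142), in ProNa against LPS by 0.64 (adjusted p = 0.0129) and in ProNa against CON by 1.26 (adjusted p = 7.21e-10). It was the one gene of the 63 that fell in each comparison there. MSTRG.3808.1 of Apoh, the plasma protein beta-2-glycoprotein I, stood at 37.2, 15.7 and 13.5, and Apoh fell by 1.10 in LPS against CON in the authors' deposited table (adjusted p = 0.00742). MSTRG.4997.1 of Amph, amphiphysin, stood at 36.4, 17.2 and 10.3, and Amph fell by 1.42 in ProNa against CON in the authors' deposited table (adjusted p = 0.000465).

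Further Gag examples were reference transcripts. Gm42863 stood at 4.49, 1.36 and 0.823 FPKM and fell by 1.44 in LPS against CON in the authors' deposited table (adjusted p = 1.91e-11). Gm47652, a 4663-base transcript, stood at 24.7, 20.5 and 14.3. Its log2 fold change in the authors' deposited table was -0.0036 for LPS against CON (adjusted p = 0.986), and it fell by 0.39 in ProNa against LPS (adjusted p = 0.0137). The 2 Gag genes that rose were Gm37256 and Gm48368. Gm48368 stood at 3.47, 4.36 and 3.76 FPKM and rose by 0.60 in LPS against CON (adjusted p = 0.0105) and by 0.52 in ProNa against CON (adjusted p = 0.0264) in the authors' deposited table. MSTRG.12265.1 of Gm37256 stood at 0.473, 1.81 and 1.10 FPKM, and the gene rose by 2.19 in LPS against CON in the authors' deposited table (adjusted p = 4.88e-16) and fell by 0.58 in ProNa against LPS (adjusted p = 0.0359).

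Pol alone filled 25 of the 63 genes, of which 4 rose, 8 fell and 13 were not called in LPS against CON in the authors' deposited table. In ProNa against LPS 1 rose and 1 fell of 23 there, and in ProNa against CON 3 rose and 11 fell of 25. Gm42546 stood at 2.50, 0.167 and 0.217 FPKM in CON, LPS and ProNa, and fell by 3.65 in LPS against CON on the log2 scale of the authors' deposited table (adjusted p = 8.03e-14). MSTRG.8997.1 of Cdkl4, 8127 bases with Gag and reverse transcriptase domains, stood at 7.30, 2.83 and 2.67. Cdkl4 fell by 1.19 in LPS against CON in the authors' deposited table (adjusted p = 2e-30). Csmd1, Gm42653 and Gm42923 fell in the same comparison, with log2 fold changes of -1.62, -2.87 and -1.06 in the authors' deposited table. Gm16897 went the other way and rose in each comparison of the authors' deposited table, by 2.65 for LPS against CON (adjusted p = 1.34e-06) and by 1.03 for ProNa against LPS (adjusted p = 0.00342).

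Gm42860, the source of the Pol letters above, was level between CON and LPS in FPKM (40.7 and 41.1) but rose by 0.28 in LPS against CON in the authors' deposited table (adjusted p = 0.00117). It fell by 0.31 in ProNa against LPS there (adjusted p = 0.00115). MSTRG.20798.1 of Ulk4, 98.6% of that gene's fragments, differed by -0.33 in LPS against CON on the FPKM scale. Ulk4 had -0.09 in the authors' deposited table for that comparison (adjusted p = 0.632) and fell by 0.30 in ProNa against CON (adjusted p = 0.0146). The authors' fold change lay above the FPKM difference for these genes, in the direction of the scale offset given above.

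Env alone filled 14 of the 63 genes, of which 2 rose and 4 fell in LPS against CON, 0 and 2 of 10 in ProNa against LPS, and 2 and 5 in ProNa against CON in the authors' deposited table. Gm20559, the source of the Env letters, held both Env and Pol. Its Pol transcript MSTRG.15838.1, with 39.9% of the fragments, stood at 5.12, 4.68 and 5.19 FPKM. With the 2 Env transcripts its sum was 20.1, 46.3 and 45.0 FPKM in CON, LPS and ProNa. Gm20559 rose by 0.80 in LPS against CON (adjusted p = 2.2e-28) and by 0.96 in ProNa against CON (adjusted p = 4.47e-69) in the authors' deposited table. Gm46224 rose by 1.23 in LPS against CON there. MSTRG.6871.1 of Fam135b stood at 57.6, 40.8 and 27.1 FPKM, and Fam135b fell by 0.46 in ProNa against LPS in the authors' deposited table (adjusted p = 0.00301). Gm50321 fell by 1.47 and Gm11331 by 1.59 in LPS against CON in the authors' deposited table (adjusted p = 0.00132 and 0.0483).

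**Figure D4:**
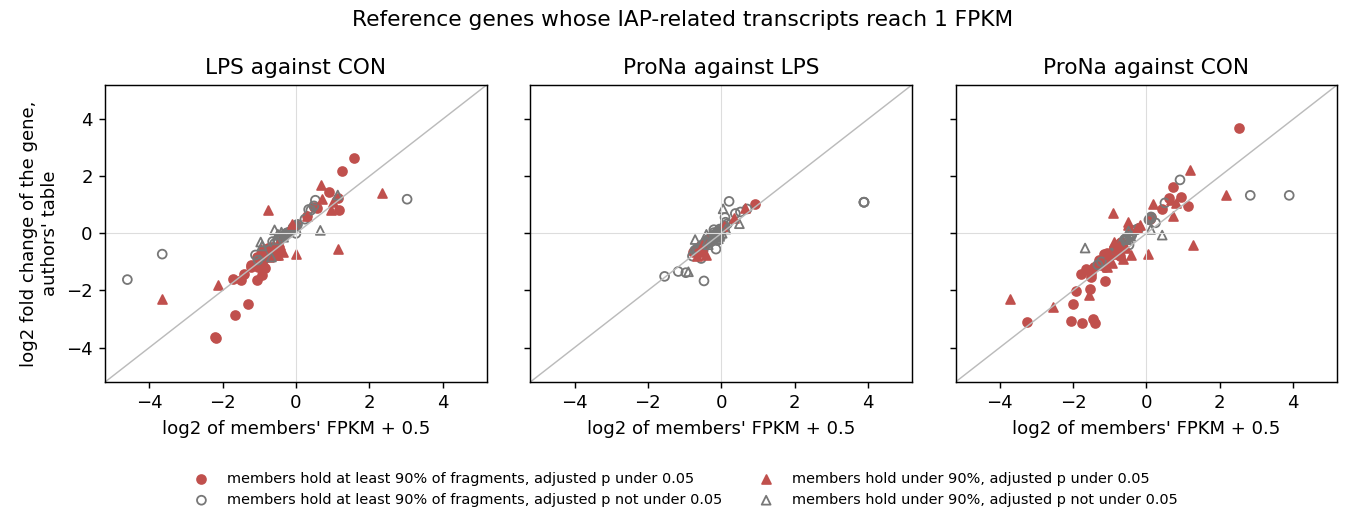
Log2 fold change of the gene in the authors' deposited table (vertical axis) against the log2 difference of the summed IAP-related FPKM plus 0.5 in that gene (horizontal axis), with 1 point for each of the 95 reference genes whose IAP-related transcripts reach 1 FPKM. Filled points have an adjusted p under 0.05 and the diagonal marks equality; triangles in the upper left and lower right are genes, such as Snd1, whose call has the other sign from the IAP-related transcript.

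Where IAP-related transcripts were a part of a gene's output, the gene's call could differ from theirs. Of the 95 genes with a transcript at 1 FPKM or more, the called direction in the authors' deposited table was opposite to the sign of the IAP-related FPKM in 4 genes for LPS against CON, 0 for ProNa against LPS and 7 for ProNa against CON. Of these, 4, 0 and 4 lay in genes with under 50% of fragments in IAP-related transcripts. Ifi213, with 84.5%, rose by 0.31 in ProNa against CON there, while its IAP-related FPKM differed by -0.19. The 2 scales also differ by the median offsets of 0.27, 0.13 and 0.41 given above. The parts of share and offset in the opposite signs were not tested. MSTRG.15941.1 of Snd1, a nuclease of the RNA-induced silencing complex, stood at 20.7, 11.9 and 10.8 FPKM and held 18.4% of that gene's fragments. Snd1 rose by 0.84 in LPS against CON in the authors' deposited table (adjusted p = 5.87e-61). Ica1 had the reverse, with MSTRG.15867.1 at 1, 2.83 and 3.14 FPKM and a gene that fell by 0.55 in the authors' deposited table (adjusted p = 6.15e-05).

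Other genes matched their IAP-related transcript. Serinc5, a membrane protein known to lower the infectivity of retroviruses, carried MSTRG.5598.1 with 84.2% of its fragments, at 6.43, 1.08 and 0.697 FPKM. Serinc5 fell by 1.82 in LPS against CON (adjusted p = 9.06e-20) and by 0.77 in ProNa against LPS (adjusted p = 0.0316) in the authors' deposited table. Itgb5 rose by 0.59 in LPS against CON (adjusted p = 2.36e-16) and fell by 0.41 in ProNa against LPS (adjusted p = 2.72e-07) in the authors' deposited table. For ProNa against CON it rose by 0.19 in that authors' deposited table (adjusted p = 0.00489), although the FPKM of its Pol transcript was lower in ProNa. Adamts13, the protease of von Willebrand factor, carried MSTRG.10592.1 at 58.1, 42 and 32.8 FPKM and fell by 0.32 and 0.21 in LPS against CON and ProNa against LPS in the authors' deposited table (adjusted p = 5.1e-05 and 0.0209).

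Other retroelement classes gave a background of the same kind, found by the text of their database matches. LINE-1 or retrotransposable element transcripts (986) summed to 1056, 1062 and 984 FPKM in CON, LPS and ProNa. Transcripts matched to leukemia virus proteins (262) summed to 2206, 973 and 773, and those of other endogenous retroviruses (54) to 374, 79.6 and 85.3. The ratio of LPS to CON was 1.01, 0.441 and 0.213 for these classes and 0.780 for the IAP-related transcripts. On the scale of the authors' gene table the ratios were 1.21, 0.532, 0.257 and 0.940, with 1.20 over all transcripts. From LPS to ProNa the ratios were 0.927, 0.794, 1.07 and 0.777 on the FPKM scale. Among these classes the IAP-related transcripts lay between LINE-1 and the leukemia virus class in LPS against CON; no test of the difference could be made.

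Genes that silence IAP elements gave more falls than rises after LPS. Of 40 in the authors' deposited table, 8 rose and 25 fell in LPS against CON (20% and 62.5%, against 28.1% and 27.2% of all genes). In ProNa against LPS 10 rose and 5 fell of 39 in the authors' deposited table (25.6% and 12.8%, against 16.5% and 14.1%), so falls were near the background. In ProNa against CON 9 rose and 23 fell of 40 in the authors' deposited table (22.5% and 57.5%, against 27.7% and 26.6%). Their median log2 fold changes there were -0.59, 0.04 and -0.74, beside -0.02, -0.0024 and -0.03 over all adjusted genes of the authors' deposited table. Uhrf1, which brings DNA methylation maintenance to replicated DNA, stood at 38.6, 0.943 and 1.29 FPKM in CON, LPS and ProNa. It fell by 5.03 in LPS against CON in the authors' deposited table (adjusted p = 2.37e-287). Cbx5, heterochromatin protein 1 alpha, stood at 20.2, 2.25 and 2.18 and fell by 3.04 in the authors' deposited table (adjusted p = 3.31e-203). Dnmt1, the maintenance DNA methyltransferase, stood at 94.0, 23.8 and 19.1. Dnmt3l of the same list went the other way, at 0.493, 15.9 and 17.2 FPKM. It rose by 5.70 in LPS against CON in the authors' deposited table (adjusted p = 1.32e-27).

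Daxx, the chaperone of histone H3.3, stood at 36.2, 127 and 199 FPKM. It rose by 1.82 in LPS against CON (adjusted p = 3.12e-70) and by 0.75 in ProNa against LPS (adjusted p = 5.22e-23) in the authors' deposited table. Pias4, a SUMO ligase, rose by 1.18 in LPS against CON in the authors' deposited table (adjusted p = 8.5e-36). In ProNa against LPS, the histone gene H3f3b rose by 0.73 (adjusted p = 1.99e-20) and Setdb1 and Chaf1b fell by 0.36 and 0.70 (adjusted p = 0.000195 and 0.000861) in the authors' deposited table. Resf1 rose by 1.67 in ProNa against CON in the authors' deposited table (adjusted p = 9.27e-164). Whether these levels bear on the IAP-related transcripts was not tested.

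Genes that restrict retroelements after transcription gave 4 rises and 4 falls of 11 in LPS against CON in the authors' deposited table (36.4% each, against 28.1% and 27.2% of all genes). ProNa against LPS gave 7 and 0 in the authors' deposited table (63.6% and 0%, against 16.5% and 14.1%), and ProNa against CON 7 and 2 (63.6% and 18.2%, against 27.7% and 26.6%). The medians there were 0.04, 0.63 and 1.19. Zc3hav1, the zinc finger antiviral protein, and Bst2, tetherin, rose by 1.60 and 0.78 in LPS against CON in the authors' deposited table (adjusted p = 2.97e-92 and 1.51e-22). Rnaseh2a, an RNase H2 subunit, and Apobec3, a cytidine deaminase, fell by 0.99 and 0.64 there (adjusted p = 6.03e-11 and 2.22e-08). In ProNa against LPS, Samhd1, a dNTP hydrolase, and Trex1, a DNA exonuclease, rose by 1.22 and 1.17 in the authors' deposited table (adjusted p = 1.45e-65 and 5.42e-52). Rnaseh2c fell by 1.60 in ProNa against CON in the authors' deposited table (adjusted p = 1.89e-08).

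Genes that sense nucleic acids gave 7 rises and 4 falls of 12 in LPS against CON in the authors' deposited table (58.3% and 33.3%, against 28.1% and 27.2% of all genes). ProNa against LPS gave 9 and 1 in the authors' deposited table (75% and 8.33%, against 16.5% and 14.1%), and ProNa against CON 8 and 4 (66.7% and 33.3%, against 27.7% and 26.6%). The medians there were 0.28, 0.86 and 1.20. Ifi204, a DNA-binding protein of the PYHIN family, stood at 9.15, 53.1 and 146 FPKM and rose by 2.43 and 1.47 in LPS against CON and ProNa against LPS in the authors' deposited table (adjusted p = 1.35e-136 and 9.99e-107). Ifih1, the RNA sensor MDA5, rose by 1.64 in LPS against CON there (adjusted p = 5.09e-104). Tlr7, an endosomal RNA receptor, and Cgas, a DNA sensor, fell by 2.16 and 1.68 in LPS against CON in the authors' deposited table (adjusted p = 1.59e-180 and 1.59e-46). Dhx58 rose by 1.06 and Tlr9 fell by 0.71 in ProNa against LPS in the authors' deposited table (adjusted p = 1.87e-40 and 0.000118). The 7 macrophage markers gave 3 rises and 4 falls in LPS against CON in the authors' deposited table. Among them Csf1r stood at 888, 27.7 and 53.1 FPKM in CON, LPS and ProNa, and Adgre1 at 31.8, 65.5 and 47.1. Their part in the values above was not tested.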

How the data were processed

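Total RNA of RAW264.7 cells in the CON, LPS and ProNa groups was sequenced. Per the submitters' processing notes, HISAT2, StringTie, DESeq2 and the build GRCm39 were used; versions are not given in the sources used here. FPKM per transcript, with 1 value per group, was deposited by the authors, per the file headers. The log2 fold changes, fold ratios and p-values per gene are the authors' own, per the file headers; genes listed at an adjusted p of exactly 1 were treated as not adjusted, since the other values equal a Benjamini-Hochberg adjustment over 17795, 12732 and 18540 genes. A further 9 columns of values per library carry names that no label gives, so they were not used in any step, and the limma fit planned for them could not be run.

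Differences were computed as log2(FPKM + 0.5) with Python 3.11.15, pandas 2.3.3 and numpy 2.4.6, for transcripts with at least 1 FPKM in a compared group, and 2-fold was the limit. The counting code was run on simulated data with large planted changes and small noise in well-expressed transcripts. That run checks the code only and says nothing about counts near the limits or in low transcripts. Chromosomes of reference genes come from GENCODE M21. Chromosomes and neighbours of assembled loci come from the order of StringTie locus numbers: 99.5% of 5919 neighbouring pairs with a reference gene shared a chromosome. Of the pairs that shared one, 86.1% lay in ascending order, so the named neighbours are less certain than the chromosomes. No coordinates are printed, because the annotation at hand is GRCm38. The sources used here do not give the strand setting, so overlapping genes on opposite strands cannot be told apart. Named transcripts are the 10 with the highest mean FPKM, the 5 largest rises and 5 largest falls per comparison, those of reference genes called at an adjusted p of 0.05, of which the text gives a part, and the 2 on either side of 1 FPKM; carriers of the printed sequences and genes with opposite signs were chosen after their values were seen. In the lists of silencing, restriction and sensing genes, the 2 smallest adjusted p-values per direction were taken. Repeats and values listed at 0 were then left out and not replaced by the next gene. Dnmt1 and Dnmt3l were added outside that rule. FPKM in those lists was summed over a gene's transcripts. The members and lists were chosen with earlier results of these data known.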

Additional observations from a re-analysis of the deposited data

How the results depend on the processing

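The ratios of FPKM summed over all IAP-related transcripts kept their direction under every setting run. By product, recomputed on the authors' scale alone, the Env ratios turned from 0.982 to 1.18 for LPS to CON and from 0.883 to 1.17 for ProNa to CON. The ratios over all transcripts went from 0.994 to 1.20 and from 1.00 to 1.33, so the Env sums did not rise beyond them. The Env medians per transcript on that scale were above those over all transcripts in these comparisons, as given above. For the IAP-related transcripts, LPS to CON was 0.787 without the highest transcript and 0.785 with FPKM rescaled to a fixed sum. It was 0.799 with median-ratio scaling and 0.940 on the scale of the authors' gene table. ProNa to LPS was 0.779, 0.768, 0.815 and 0.853, and ProNa to CON 0.613, 0.603, 0.651 and 0.803 in the same order. Counts past 2-fold stayed within 1.5 times except as follows. With a minimum of 5 FPKM, LPS against CON gave 12 higher and 42 lower of 171, and ProNa against CON 10 higher of 170. In assembled loci alone, 16 of 172, 3 of 151 and 13 of 172 were higher for LPS to CON, ProNa to LPS and ProNa to CON. These were 9.30%, 1.99% and 7.56%, against 41.0%, 6.99% and 41.2% in assembled loci that are not IAP-related. Lower were 26.2%, 4.64% and 39.5%, against 28.4%, 8.48% and 30.7% in those other loci. With other retroviral annotation, 16 of 204 and 12 of 203 were higher in LPS against CON and ProNa against CON. At 500 bases or more, ProNa against LPS gave 3 higher and 3 lower of 196, and ProNa against CON 15 higher of 225. A pseudocount of 1 left 5 lower in ProNa against LPS. The authors' scale gave 40 higher in ProNa against CON. The smaller sets hold fewer transcripts, and for the scale and pseudocount the cause was not tested. In the authors' deposited table, asking also for 2-fold left 12 genes that rose and 20 that fell of 130 in LPS against CON. It left 2 and 0 of 103 in ProNa against LPS, and 13 and 27 of 132 in ProNa against CON. The share of all genes past both limits was not computed, so these counts stand without a background. Genes with at least 90% of fragments in IAP-related transcripts gave 9 and 20, 1 and 7, and 8 and 28 by adjusted p alone. The limits of 500 bases, retroviral annotation, 90% and the authors' scale were chosen after seeing the data. By nr text alone 0 transcripts remained, so that setting gave no value. Leaving out single samples was not run, since the values used are 1 per group. No paired analysis was possible because the columns used carry no replicate numbers.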
